A study of Homo sapiens with 10 samples.

Results

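The 10 genes described here encode the enzymes that copy the human genome at the replication fork. They are POLA1, POLA2, PRIM1 and PRIM2 of the polymerase α–primase complex, POLD1 and POLD3 of polymerase δ, POLE and POLE2 of polymerase ε, the sliding clamp PCNA and the flap endonuclease FEN1. They were taken by name from the 19970 protein-coding genes of GENCODE release 44, by a rule that uses no measured value, although the set was proposed with earlier results of these data known. A peak of the retinoblastoma protein (Rb) was assigned to a gene when it lay between 2000 bp upstream and 500 bp downstream of any annotated transcript start of the gene, and the 10 genes have 100 such starts. Of the 87112 Rb peaks in 8 libraries, 93 lay at these promoters.

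Rb occupancy was profiled by CUT&RUN, in which an antibody on chromatin tethers a nuclease and the DNA fragments it frees are sequenced. OVCAR-3 and Kuramochi cells, both established from high-grade serous ovarian cancer and here of unedited genotype, received either 300 nM of the CDK2 inhibitor INX-315 or the same volume of DMSO, its solvent, over 2 days. Rb libraries numbered 2 for each treatment and line, from separate cultures of 1 experiment, and 1 library with a control IgG2a antibody from DMSO-treated cells. With 2 cultures per group, every SD and p-value below rests on little replication.

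Polymerase α–primase lays down a short RNA–DNA primer, polymerase ε extends the leading strand, polymerase δ extends the lagging strand, PCNA holds the polymerases on DNA, and FEN1 trims the flaps between Okazaki fragments. Their genes are textbook targets of the E2F transcription factors, which switch them on at the G1/S transition. Rb binds E2F at promoters in its hypophosphorylated form, and cyclin-dependent kinases, CDK2 among them, phosphorylate it and release it.

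The E2F recognition letters are shown first because they are the part of these promoters that Rb-bound E2F is known to read. Searched on both strands of the 300 bp from 250 bp upstream to 50 bp downstream of the canonical transcript start, the strings TTTCCCGC, TTTCGCGC, TTTGCCGC and TTTGGCGC occurred in 6 of the 10 promoters (POLA1, POLA2, POLD1, POLD3, POLE and POLE2), against 4.37% of all 19970 promoters. The same strings without their first T (TTCCCGC or TTCGCGC or TTGCCGC or TTGGCGC), which the longer ones contain, were in 7 promoters, PRIM1 being the addition, against 17.1% of all. CCAAT was in 4 promoters (PCNA, POLA1, POLE and PRIM1; 36.0% of all) and the CHR string TTTGAA in 1 (POLD1; 11.5% of all). None of the E2F strings was found in the 300 bp of PCNA, FEN1 or PRIM2, which says only that these letters are not in that window. The median GC content of all promoters was 63.7%, and the members ranged from 50.3% at POLD3 to 73.7% at POLE. The 7 promoters with a string are given below from 60 bp upstream (150 bp at POLA1) to 30 bp downstream of the start, read in the direction of transcription from hg38, with the E2F strings of either strand in capitals.
POLA1, chrX:24693768-24693947, plus strand: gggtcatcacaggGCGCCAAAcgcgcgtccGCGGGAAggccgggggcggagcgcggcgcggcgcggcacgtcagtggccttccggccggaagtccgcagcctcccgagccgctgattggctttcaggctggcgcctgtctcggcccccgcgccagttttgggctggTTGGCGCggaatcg
POLA2, chr11:65261902-65261991, plus strand: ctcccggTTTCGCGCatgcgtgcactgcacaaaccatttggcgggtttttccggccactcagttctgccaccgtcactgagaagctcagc
PRIM1, chr12:56752294-56752383, minus strand: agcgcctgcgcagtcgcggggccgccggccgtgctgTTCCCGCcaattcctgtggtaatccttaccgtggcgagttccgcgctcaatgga
POLD1, chr19:50384287-50384376, plus strand: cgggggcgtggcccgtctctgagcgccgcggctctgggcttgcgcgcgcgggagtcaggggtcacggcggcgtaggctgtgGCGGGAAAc
POLD3, chr11:74592522-74592611, plus strand: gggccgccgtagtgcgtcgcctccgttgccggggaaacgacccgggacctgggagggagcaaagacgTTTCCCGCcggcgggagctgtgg
POLE, chr12:132687313-132687402, minus strand: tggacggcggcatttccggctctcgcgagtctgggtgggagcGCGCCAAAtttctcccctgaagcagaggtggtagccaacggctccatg
POLE2, chr14:49688185-49688274, minus strand: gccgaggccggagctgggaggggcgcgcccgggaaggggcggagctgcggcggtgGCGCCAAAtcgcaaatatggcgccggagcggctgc

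The 3 genes without an E2F string in that window were PCNA and FEN1, the members with the highest peaks under INX-315, and PRIM2, the member whose summits lay farthest from its start. The sequences under their median summits are therefore shown, as 100 bp for PCNA and FEN1 and 200 bp for PRIM2, with the same marking.
PCNA, chr20:5119619-5119718, minus strand: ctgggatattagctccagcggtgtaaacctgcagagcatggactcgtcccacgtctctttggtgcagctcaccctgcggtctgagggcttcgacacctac
FEN1, chr11:61793030-61793129, plus strand: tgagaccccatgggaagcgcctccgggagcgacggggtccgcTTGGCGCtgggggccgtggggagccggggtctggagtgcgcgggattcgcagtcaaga
PRIM2, chr6:57316835-57317034, plus strand: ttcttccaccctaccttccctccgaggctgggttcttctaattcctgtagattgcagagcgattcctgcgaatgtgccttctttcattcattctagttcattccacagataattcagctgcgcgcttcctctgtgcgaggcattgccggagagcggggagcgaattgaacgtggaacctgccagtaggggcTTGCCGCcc
Within 200 bp around the median summit, an 8-letter E2F string was found at POLA1, POLE and POLE2 (3 of 10 members, against 6.75% of the 3762 genes with a promoter peak in all 8 Rb libraries), and a 7-letter string also at FEN1 and PRIM2 (5 of 10, against 24.6%). These shares are not for a like set, because POLA1, POLE2 and PRIM2 are not among the 3762 genes. Of the 7 members that are, POLE alone held an 8-letter string, and POLE and FEN1 a 7-letter string. The PCNA, POLA2, PRIM1, POLD1 and POLD3 windows held neither, and no member's summit window held CCAAT or TTTGAA.

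Most Rb summits at these genes lay near the canonical start. In each library the highest promoter peak stood for a gene, which gave 74 peaks out of 80 possible pairs of gene and library. Of these, 65 (87.8%) had their summit within 300 bp of the canonical start, against 66.8% of all 73542 such peaks of protein-coding genes, and 51 summits lay downstream of the start. PCNA summits fell 243 to 426 bp downstream, in coding exon 1 in 6 libraries and in intron 1 in the other 2. All 8 summits of PRIM1, the catalytic primase subunit, lay in coding exon 1 and all 8 of POLA2 in the untranslated part of exon 1, whereas POLA1 summits were upstream in 4 of 5 libraries and POLD1 summits in 6 of 8. PRIM2 summits lay farthest from the canonical start, all 7 of them upstream with a median position of -695 bp, in peaks that reached over the start in 6 libraries. Other annotated starts of PRIM2 lie farther upstream. Summits of a gene also moved between libraries, from -770 to -140 bp at PRIM2, -274 to 197 bp at POLE and -125 to 192 bp at FEN1, and their positions were not compared between lines or treatments by a test.

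**Figure D1:**
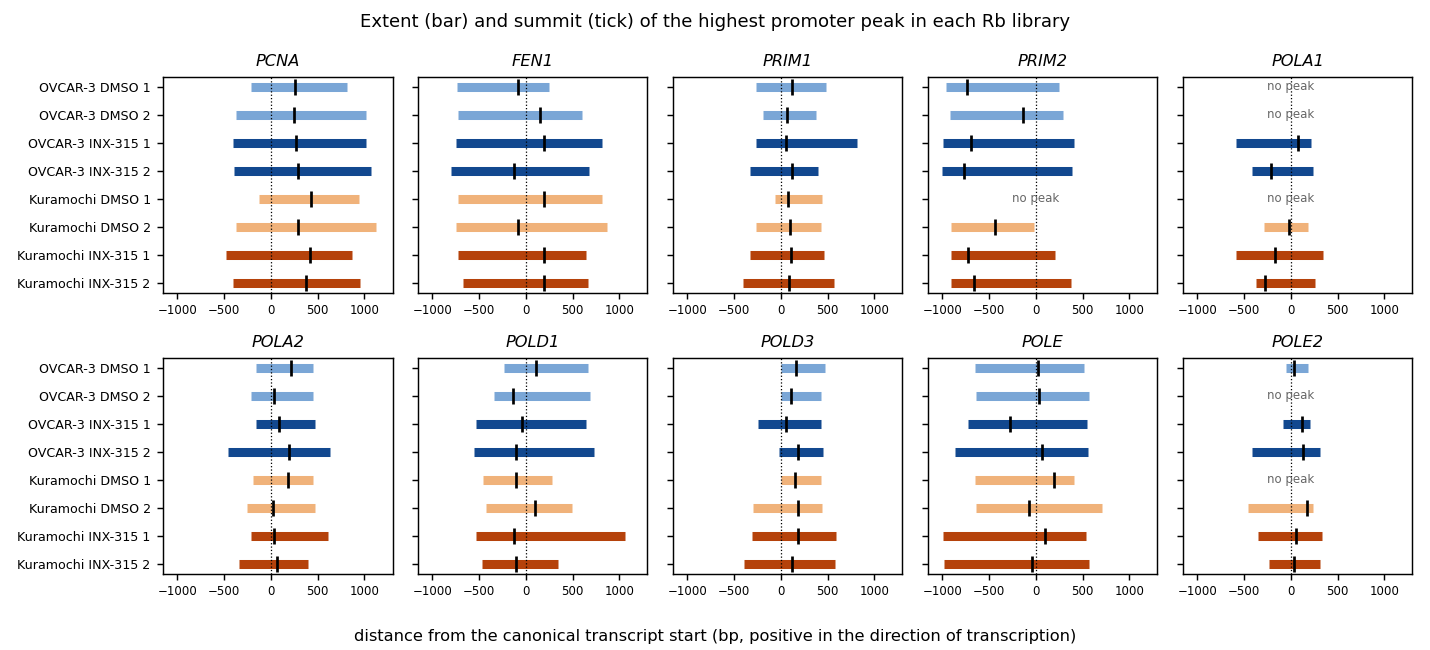
Extent (bars) and summit (ticks) of the highest promoter peak of each gene in each of the 8 Rb libraries, in bp from the canonical transcript start, positive in the direction of transcription. Summits stayed within 300 bp of the start in 65 of 74 peaks, and PRIM2 summits were shifted upstream.

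Several of these peaks covered starts of other genes, so their signal cannot be given to 1 gene alone. Within 1000 bp of the median summit lay starts of HSD17B6 at PRIM1 (70 bp away), FADS2 and TMEM258 at FEN1 (100 and 278 bp), with the microRNA gene MIR611 at 519 bp, PXMP2 at POLE (276 bp), with the non-coding gene ENSG00000256632 at 738 bp, and the coding gene ENSG00000285816 and the antisense non-coding gene ENSG00000287821 at POLA2 (112 and 292 bp). No such neighbour was found for the other 6 genes. PCNA and POLD3 also had a separate peak at a distal annotated start in all 8 libraries. The distal PCNA peak, with summits at -6797 to -6607 bp from the canonical start, lay beside the start of CDS2, and its height ranged from 49.9 to 63.2 under DMSO and from 91.4 to 213 under INX-315. The distal POLD3 peak, with summits at -99338 to -99007 bp beside LIPT2 and LIPT2-AS1, ranged from 16.0 to 21.1 under DMSO and from 52.2 to 95.1 under INX-315.

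Heights are given here as the number of fragments over the summit divided by the mean fragments per base of the same library, so a height of 100 means that the summit was covered 100 times as deeply as the average base. Mean coverage ran from 0.216 to 0.501 fragments per base in the Rb libraries. In OVCAR-3 both INX-315 libraries (0.307 and 0.421) had lower coverage than both controls (0.495 and 0.501), and in Kuramochi the groups overlapped (0.405 and 0.216 against 0.445 and 0.380). Peaks per library numbered 5221 to 8794 under DMSO and 13031 to 17281 under INX-315. No peak of either IgG2a library lay at a promoter of these genes. Those lists held only 25 (OVCAR-3) and 12 (Kuramochi) peaks on the main chromosomes, so this does not show a low background. In OVCAR-3 the local IgG2a background reached 5.60 times the genome mean at POLE2, 4.48 at POLE, 4.26 at FEN1 and 4.13 at PRIM2. It reached 3.19 at PRIM1, 3.10 at POLD3, 2.70 at POLA1, 1.80 at POLD1, and 1.12 at PCNA and POLA2. The highest in Kuramochi was 2.497, at POLE2. No spike-in scaling was applied, so heights compare shares of a library and not absolute amounts of Rb, and the part of mean coverage in the changes under INX-315 was not tested.

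Under DMSO, most of these promoters already carried Rb. A peak in both replicates was present at 8 of the 10 genes in OVCAR-3, against 26.8% of all protein-coding genes, and at 7 of 10 in Kuramochi, against 24.8%. The exceptions were POLA1, the catalytic subunit of polymerase α, and POLE2, an accessory subunit of polymerase ε, in both lines, and PRIM2, the large primase subunit, in Kuramochi. Under INX-315, all 10 had a peak in both replicates of both lines, against 55.5% of all genes in OVCAR-3 and 53.2% in Kuramochi. In all, 7 of 10 had a peak in every Rb library, against 18.8% of all genes. Genes free of a promoter peak in both DMSO libraries and bound in both INX-315 libraries were 1 of 1 such member in OVCAR-3 (POLA1; 27.1% of 11921 free genes) and none in Kuramochi, where no member was free of peaks in both DMSO libraries (23.5% of 11895 free genes). Without DMSO replicate 2 of Kuramochi that count was 3 of 3 (POLA1, POLE2 and PRIM2; 36.7% of 14715 free genes), and without DMSO replicate 1 of OVCAR-3 it was 2 of 2 (30.5% of 12584). The libraries of a line were also limited to equal numbers of peaks. In OVCAR-3, 8 members were then bound under DMSO (24.8% of all genes) and 7 under INX-315 (not POLA1, POLA2 or POLE2; 29.0%). POLA2 was thus bound under DMSO alone there. In Kuramochi the counts were 7 under DMSO (21.8%) and 8 under INX-315 (25.01%). No member was gained in either line (3.67% and 2.97% of free genes).

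**Figure D2:**
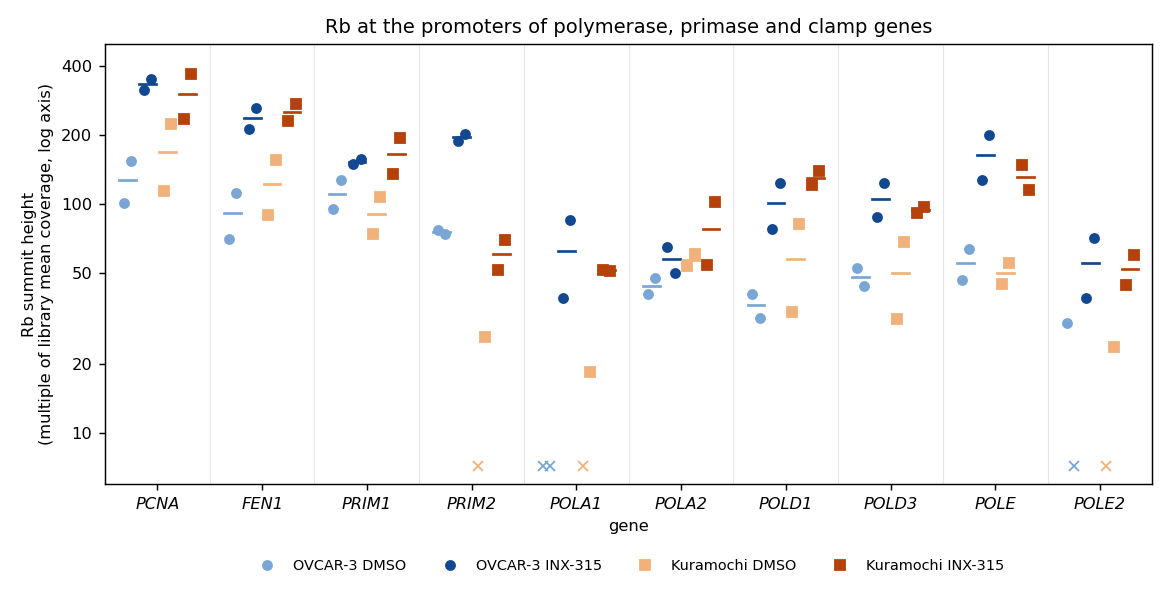
Summit height of Rb at the promoter of each gene in each library, as a multiple of the mean coverage of the library on a log axis, with 2 libraries per group and a bar at their mean. Crosses at the foot mark libraries with no promoter peak. PCNA and FEN1 were highest, and INX-315 libraries lay above DMSO libraries of the same line except at POLA2 in Kuramochi.

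PCNA carried the highest Rb summit of the 10 genes in each of the 8 libraries. In OVCAR-3 its height was 101 and 154 in the DMSO libraries and 316 and 352 in the INX-315 libraries. The Kuramochi controls stood at 115 and 224, and the treated libraries of that line at 235 and 371. The treated libraries were higher than the controls in both lines, although the upper Kuramochi control (224) came close to the lower treated library (235). Averaged over the lines, PCNA height rose 2.22-fold (95% interval 1.53 to 3.22; limma, log2 change 1.15 with SE 0.27, adjusted p = 2.98e-05). The interval and p-value rest on a spread shared by all genes tested, not on the PCNA libraries alone. The same holds for the other members tested on this scale. Its summits held 50 to 148 fragments and stood at or above the 98.3rd percentile of all peaks in every Rb library.

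FEN1, the flap endonuclease that trims the ends of Okazaki fragments, was next to PCNA in 3 of the 4 groups. In OVCAR-3 the FEN1 heights of the controls were 70.7 and 112, and those of the treated libraries 212 and 262. The Kuramochi controls had 89.9 and 155, and the treated libraries 229.7 and 273. Neither line had overlapping groups, and the rise was 2.37-fold over both lines (1.61 to 3.498; log2 change 1.245 with SE 0.29, limma, adjusted p = 1.73e-05). The local IgG2a background at FEN1 was 3.10 to 4.26 times the genome mean in OVCAR-3 and 1.31 to 2.19 times in Kuramochi, so relative to local background the OVCAR-3 heights were lower, 16.6 and 36.0 under DMSO, against 51.3 and 77.8 with INX-315.

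Of the catalytic polymerase subunits, POLE and POLD1 rose most among the members tested. POLE, which extends the leading strand, had heights of 46.5 and 63.8 under DMSO, against 127 and 199.7 with INX-315 in OVCAR-3. In Kuramochi the values were 44.9 and 55.3 under DMSO, against 148 and 116 with INX-315. Every treated library was higher than both controls of its line, and the rise was 2.77-fold (1.83 to 4.20; log2 change 1.47 with SE 0.31, limma, adjusted p = 2.03e-06). POLD1, the catalytic subunit of polymerase δ, had heights of 40.4 and 31.9 under DMSO against 78.3 and 124 under INX-315 in OVCAR-3. In Kuramochi its controls spread widely, at 33.7 and 81.6, and its treated libraries stood at 121 and 139. POLD1 rose 2.60-fold (1.71 to 3.95; log2 change 1.38 with SE 0.31, limma, adjusted p = 9.07e-06).

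POLD3, an accessory subunit of polymerase δ, had heights of 52.6 and 43.9 under DMSO, against 88.1 and 124 with INX-315 in OVCAR-3. In Kuramochi it had 31.5 and 68.5 under DMSO, against 91.4 and 97.3 with INX-315. The groups did not overlap in either line, and the rise was 2.10-fold (1.38 to 3.19; log2 change 1.07 with SE 0.31, limma, adjusted p = 0.000518). On the fold enrichment that the caller listed, the Kuramochi groups of POLD3 overlapped.

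PRIM1 and POLA2 had the smallest changes of the 7 genes tested. Both belong to polymerase α–primase, whose other subunits POLA1 and PRIM2 lacked a peak in some library and were not among the 7. In OVCAR-3 fitted on its own, PRIM2 had a log2 change of 1.38, against a median of 1.78 over the genes of that fit. POLA1 had no DMSO peak in that line, and heights of 39.2 and 85.6 under INX-315. PRIM1 was already high under DMSO, at 94.996 and 128 in OVCAR-3 and 74.1 and 108 in Kuramochi. Under INX-315 it reached 150.1 and 157 in OVCAR-3 and 136 and 195 in Kuramochi. The groups stayed apart, yet the change was only 1.59-fold over both lines (1.07 to 2.38; log2 change 0.67 with SE 0.30, limma, adjusted p = 0.0235), and in OVCAR-3 alone it missed the threshold (1.39-fold, 0.790 to 2.46, adjusted p = 0.253). The PRIM1 call over both lines was lost on the listed fold enrichment (adjusted p = 0.153) and on leaving out DMSO replicate 1 of OVCAR-3 (0.120), DMSO replicate 1 of Kuramochi (0.0610) or INX-315 replicate 2 of Kuramochi (0.151).

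POLA2, the regulatory B subunit of polymerase α, was the 1 tested member whose rise did not pass the test. Its heights were 40.4 and 47.9 under DMSO, against 65.3 and 49.9 with INX-315 in OVCAR-3. In Kuramochi they were 53.9 and 60.6 under DMSO, against 54.3 and 101.9 with INX-315. The Kuramochi groups overlapped, and over both lines the ratio was 1.30 (0.857 to 1.97; log2 0.38 with SE 0.31, limma, adjusted p = 0.217). The fragments behind these summits hardly varied, at 20 and 24 under DMSO, against 20 and 21 with INX-315 in OVCAR-3 and at 24, 23, 22 and 22 in the same order in Kuramochi. A count of 20 has an exact 95% Poisson interval of 12.2 to 30.9, which covers counting error only and holds all 8 counts. Heights are these counts divided by the mean coverage of each library, which differed more, from 0.216 to 0.501.

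**Figure D3:**
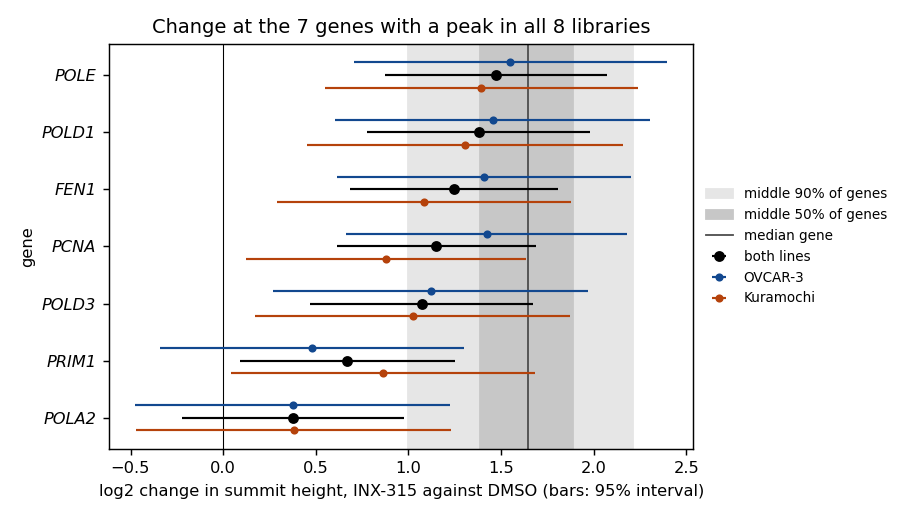
Log2 change in summit height under INX-315 against DMSO for the 7 genes with a peak in all 8 Rb libraries, with 95% intervals from limma, over both lines (black) and in each line. Grey bands hold the middle 90% and 50% of the 3762 genes tested over both lines and the vertical line their median, 1.64, to the right of the black point of each of the 7 genes.

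POLA1, POLE2 and, in Kuramochi, PRIM2 were weak or without a peak under DMSO, and were therefore not among the 7 genes tested. POLA1 had no promoter peak in either DMSO library of OVCAR-3 or in DMSO replicate 1 of Kuramochi, and a height of 18.4 (7 fragments) in DMSO replicate 2 of Kuramochi. Under INX-315 it stood at 39.2 and 85.6 in OVCAR-3 and at 51.9 and 50.9 in Kuramochi. A missing peak is no height of 0: the lowest promoter peaks called in those DMSO libraries had heights of 9.97 to 11.2, or 5 fragments. These are the lowest over all promoters, and an uncalled summit could stand higher where the local background was raised. In libraries with a peak, the local IgG2a background at POLA1 was 2.45 to 2.70 times the genome mean in OVCAR-3 and equal to it in Kuramochi. At POLE2 it was 3.58 to 5.60 times in OVCAR-3 and 1.41 to 2.497 times in Kuramochi. POLE2 was called in 1 DMSO library of each line, at 30.3 in OVCAR-3 and 23.7 in Kuramochi, and under INX-315 stood at 39.2 and 71.3 in OVCAR-3 and 44.5 and 60.2 in Kuramochi. Both genes thus held a peak in all 4 treated libraries and in 1 or 2 of the 4 controls. With missing peaks set to the lowest promoter height of their library, the log2 changes over both lines were 2.18 for POLA1, 1.63 for POLE2 and 1.59 for PRIM2, above the median of 1.51 over the 13734 genes of that fit (percentiles 91.4, 59.1 and 55.9). Within OVCAR-3 the percentiles in that fit were 93.6, 47.3 and 34.5 in the same order, and within Kuramochi 78.6, 68.6 and 76.6. PRIM2 had no substitute height in OVCAR-3. The substitute heights help to set the direction and size of the other values, so all are given as a description with no test. Where the local background was raised, the substitute heights may be too low and the changes too large.

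PRIM2 heights did not overlap between the lines in the 7 libraries with a peak. In OVCAR-3 it stood at 76.8 and 73.8 under DMSO, against 189 and 202 with INX-315. In Kuramochi it had no peak in DMSO replicate 1, 26.3 in DMSO replicate 2, and 51.9 and 69.5 under INX-315. The highest Kuramochi library thus lay below the lowest OVCAR-3 library. The share of all genes whose lines lay apart in this way was not counted, so this is not shown to be particular to PRIM2. The local IgG2a background at PRIM2 was 2.01 to 4.13 times the genome mean in OVCAR-3 and equal to it in Kuramochi, and relative to local background the heights were 38.1 and 17.9 under DMSO, against 77.1 and 99.7 with INX-315 in OVCAR-3, against 26.3, 51.9 and 69.5 in Kuramochi. On that scale the lines overlapped under DMSO and still lay apart under INX-315. Within OVCAR-3 fitted on its own, the log2 change of PRIM2 under INX-315 was 1.38 (SE 0.42; limma, adjusted p = 0.00126). That change was at percentile 18.0 of the 5333 genes of that fit, whose median was 1.78. The annotation holds an unprocessed pseudogene of PRIM2, PRIM2BP, on the same chromosome, and how reads that fit both loci were placed was not tested.

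The 7 genes with a peak in every library were set against all genes with such peaks, a comparison that leaves out POLA1, POLE2 and PRIM2, the members weak under DMSO in at least 1 line. Of the 3762 genes with a promoter peak in all 8 libraries, 3752 (99.7%) passed the test as higher under INX-315 over both lines and none as lower (none lower at an unadjusted p under 0.05 either), with a median log2 change of 1.64, or 3.12-fold. The 7 members tested had a median of 1.15, and 6 of 7 passed. In OVCAR-3 the counts were 5 of 7 members (not POLA2 or PRIM1) and 97.8% of all genes, and in Kuramochi 6 of 7 members (not POLA2) and 93.2%. The Kuramochi count rested on single libraries: it was 1 of 7 without INX-315 replicate 2 (63.5% of all genes), 3 of 7 without INX-315 replicate 1 (82.8%), 2 of 8 without DMSO replicate 1 (POLE and PRIM2, the latter then with peaks in all libraries; 64.2%), and 0 of 7 on the listed fold enrichment (59.1%). A higher height in both treated libraries than in both controls was found at 8 of 8 members with peaks in all 4 OVCAR-3 libraries, against 99.2% of genes, and at 6 of 7 in Kuramochi, against 97.4%. The members' counts were therefore near or under the shares of all genes, and each of the 7 changes was below the median gene. POLA2 had the third lowest change of the 3762 genes, with 2 genes below it, and PRIM1 had 27 below it, POLD3 250, PCNA 374, FEN1 545, POLD1 932 and POLE 1193.

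The members were also compared with genes of like height. Among 5 groups of near equal size of genes by mean height over the 8 libraries, the median log2 change ran only from 1.57 in the lowest group to 1.72 in the middle group and 1.58 in the highest. POLA2 had the lowest change of the 752 genes in its group, the middle one, where 31 genes lay below POLD3. PRIM1 had 6 of 753 genes below it in the highest group, where PCNA had 93 and FEN1 137. In the group between, 163 of 752 genes lay below POLD1 and 204 below POLE.

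**Figure D4:**
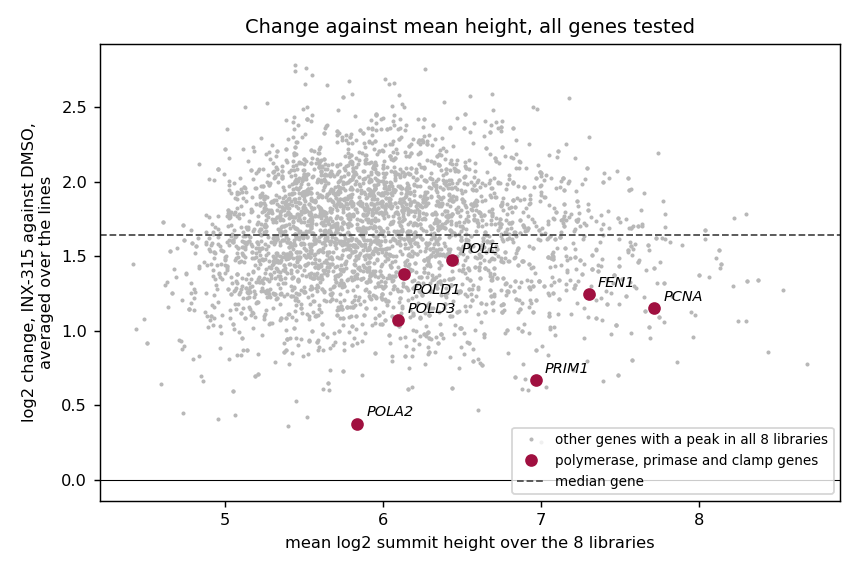
Log2 change in summit height under INX-315, averaged over the lines, against mean log2 height over the 8 Rb libraries for the 3762 genes tested (grey) and the 7 members among them (red). The 7 members lie below the dashed median of 1.64, with POLA2 and PRIM1 at the lower edge of the cloud.

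To report the members relative to that common shift, heights were divided by the median height of the tested genes in each library, which ran from 28.3 to 47.4 under DMSO and from 91.4 to 136 under INX-315. On this scale none of the 7 members rose and 5 fell over both lines, against 11.1% of genes that fell. POLA2 fell by 1.30 on the log2 scale (SE 0.21; limma, adjusted p = 0.000207) and PRIM1 by 1.01 (SE 0.14, adjusted p = 3.61e-05). The drops of POLD3 (log2 change -0.61, adjusted p = 0.0202), PCNA (-0.53, 0.00659) and FEN1 (-0.44, 0.0210) were smaller, and POLD1 (-0.30, 0.273) and POLE (-0.21, 0.409) did not pass. Within OVCAR-3, POLA2 and PRIM1 fell (2 of 7, against 6.03% of genes), and within Kuramochi POLA2 and PCNA did (2 of 7, against 3.38%). Over both lines, the calls of POLA2 and PRIM1 held on leaving out each of the 8 libraries in turn. Within OVCAR-3 the POLA2 call was lost without INX-315 replicate 2 of that line. Within Kuramochi no member fell without either INX-315 library of that line, PCNA alone fell without its DMSO replicate 1, and POLA2 alone without its DMSO replicate 2 or either INX-315 library of OVCAR-3. Over both lines the number of members that fell went from 5 to 2 without INX-315 replicate 2 of OVCAR-3, without DMSO replicate 2 of Kuramochi or without INX-315 replicate 1 of Kuramochi, and to 3 without INX-315 replicate 2 of Kuramochi. When the local IgG2a background replaced the genome mean as divisor, POLA2 alone fell over both lines, PRIM1 lost its call (log2 change -0.73, adjusted p = 0.116), and no member fell within a line.

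Peaks were also placed by their rank among all peaks of a library. The lists under INX-315 were longer (13031 to 17281 peaks against 5221 to 8794) and PCNA and FEN1 sat near the top of the scale, so ranks are given as positions within each list and not as changes in occupancy. Genes with a promoter peak had a median percentile of 55.4 to 64.7 in the 8 libraries, and the members had 83.5 to 94.8. The mean percentile of POLA2 was 86.8 in the DMSO lists and 64.1 in the INX-315 lists for OVCAR-3, and for Kuramochi it was 88.1 and 75.1. That of PRIM1 was 98.8 and 93.8 in OVCAR-3 and 95.8 and 93.9 in Kuramochi. Both treated ranks were below both control ranks at POLA2 and PRIM1 in each line, 2 of 8 members in OVCAR-3 and 2 of 7 in Kuramochi, against 2.93% and 2.28% of genes. POLE in Kuramochi was the only member with both treated ranks above both controls, while both treated ranks were higher at 69.5% of genes in OVCAR-3 and 68.4% in Kuramochi.

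**Figure D5:**
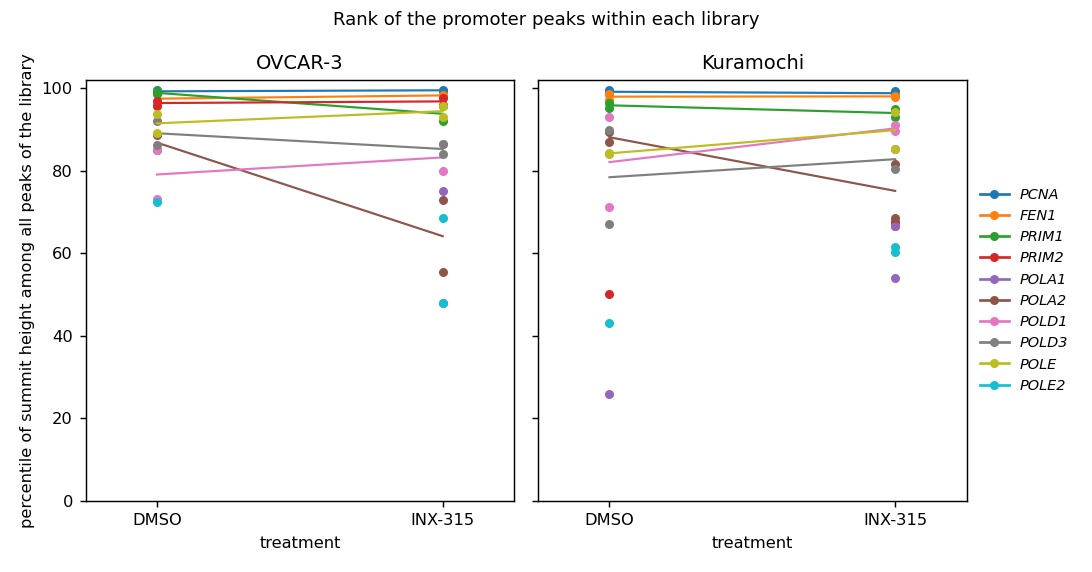
Percentile of the summit height of each gene's promoter peak among all peaks of the library, by treatment and line, with 1 point per library and a line between group means where all 4 libraries had a peak. Lists under INX-315 were longer than under DMSO. PCNA and FEN1 lay above 96 in every library, near the top of the scale, and the POLA2 means were 86.8 and 64.1 in OVCAR-3 and 88.1 and 75.1 in Kuramochi.

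The order of the members by mean height was led by PCNA in each of the 4 groups, but neighbours in the order mostly overlapped. In OVCAR-3 under DMSO the order was PCNA (127 ± 37.1, SD, n = 2), PRIM1 (111 ± 23.1), FEN1 (91.2 ± 28.9) and PRIM2 (75.3 ± 2.14), followed by POLE, POLD3, POLA2 and POLD1 between 55.1 and 36.2, and only PRIM2 and POLE were neighbours without overlap. Under INX-315 PCNA reached 334 ± 25.1, apart from FEN1 at 237 ± 35.0, which was in turn apart from PRIM2 at 196 ± 9.10. PRIM1 fell back from the second to the fifth place, at 154 ± 4.84, and the lowest 3 were POLA1, POLA2 and POLE2 between 62.4 and 55.2, all overlapping. In Kuramochi under DMSO every neighbour pair of the 7 genes overlapped, from PCNA at 169 ± 77.3 to POLD3 at 49.96 ± 26.2. Under INX-315 FEN1 (251.5 ± 30.8) stood apart from PRIM1 (165 ± 41.5), and POLD1 (129.98 ± 12.7) from POLD3 (94.3 ± 4.16), with POLA1 last at 51.4 ± 0.650.

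The lines were not shown to differ in their response at these genes. The difference between the lines in the log2 change of height ran from -0.54 at PCNA (95% interval -1.61 to 0.53) to 0.38 at PRIM1 (-0.78 to 1.54), and no member or other gene passed the test (0.0% of 3762; limma, 99 genes at an unadjusted p under 0.05, none of them a member). The intervals were wide: at POLA2, POLD1, POLD3 and POLE they spanned a log2 difference of 1 in either direction, and at PCNA, FEN1 and PRIM1 in one direction. Under DMSO, Kuramochi and OVCAR-3 differed at none of the 7 members, against 7.34% of the 3762 genes tested. Relative to the library median, PRIM1 under DMSO was lower in Kuramochi by a log2 difference of -0.62 (SE 0.20, adjusted p = 0.0234), as were 15.8% of genes.

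Peaks did not pass the test as wider at any member. Widths of the highest promoter peaks ranged from 237 bp at POLE2 to 1617 bp at FEN1. Of all tested genes, 54.6% had wider coverage by promoter peaks under INX-315 over both lines, with a median log2 change of 0.75, whereas none of the 7 members passed, with changes from 0.16 at FEN1 to 0.68 at POLD3 and a median of 0.46. At an unadjusted p under 0.05 there was 1 member, POLD3. The tested width added up all promoter peaks of a gene, the distal peaks of PCNA and POLD3 included. On the highest peak alone the median log2 change was 0.29 at the members, against 0.71 over all genes tested. No member had an unadjusted p under 0.05 on that measure. Without DMSO replicate 2 of Kuramochi, 4 of the 7 members passed as wider, against 77.8% of all genes.

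Other genes of the replication fork were also bound. Of 24 genes for the remaining polymerase subunits, the clamp loader, ligase, RPA, RNase H2 and fork protection factors, 20 had a peak in both DMSO replicates of OVCAR-3 and 18 in Kuramochi (26.8% and 24.8% of all genes), and all 24 did under INX-315 in both lines (55.5% and 53.2%). POLD4, a small subunit of polymerase δ, and RNASEH2A, the catalytic subunit of RNase H2, were free of peaks under DMSO in OVCAR-3 and bound under INX-315. They were the 2 free genes of the list in that line, where 27.1% of all free genes were bound under INX-315. Besides POLD4 and RNASEH2A, the genes CHTF18, DNA2, POLE3, RFC1, RFC5 and TIPIN lacked a peak in some library. All 16 genes with peaks in all 8 libraries rose (16 of 16, beside 99.7% of the 3762 genes tested), with a median log2 change of 1.35. The lowest changes were those of CLSPN, the checkpoint adaptor Claspin (0.78, SE 0.24), RNASEH2B (0.87, SE 0.30) and the clamp loader subunit RFC2 (0.93, SE 0.30), and the highest those of RFC4 (1.60, SE 0.30), POLE4 (1.74, SE 0.30) and the single-strand binding protein RPA2 (1.91, SE 0.31), and each passed the limma test. Relative to the library median none rose and 4 fell (CLSPN, RNASEH2B, RFC2 and ATAD5), against 11.1% of the 3762 genes tested that fell.

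The specialised DNA polymerases and their partners, which bypass lesions, repair DNA or copy the mitochondrial genome, had 8 of 14 genes bound under DMSO in each line (26.8% of all genes in OVCAR-3 and 24.8% in Kuramochi), and 11 in OVCAR-3 and 10 in Kuramochi under INX-315 (55.5% and 53.2%). DNTT, the template-independent polymerase of lymphocytes, and POLL had no promoter peak in any library, and POLG, POLG2, POLI, POLM, POLN and REV3L lacked one in some. POLI was gained in OVCAR-3 (1 of 4 free genes of the list, against 27.1% of all free genes) and POLG, the mitochondrial polymerase, in Kuramochi (1 of 5, against 23.5%). All 6 genes with peaks in all 8 libraries rose (99.7% of the 3762 genes tested did), with a median log2 change of 1.82. From lowest to highest these were REV1 (1.64, SE 0.30), PRIMPOL (1.75, SE 0.30), POLQ (1.80, SE 0.31), POLK (1.85, SE 0.30), MAD2L2 (1.90, SE 0.31) and POLH (2.299, SE 0.31). POLH, the translesion polymerase η, had heights of 24.3 and 16.0 under DMSO, against 108 and 166 with INX-315 in OVCAR-3. In Kuramochi it had 31.5 and 31.6 under DMSO, against 109 and 116 with INX-315. POLH was the 1 gene of this list that also rose relative to the library median, as did 211 of the 3762 genes tested. Whether the 3 gene lists differ from each other was not tested.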

How the data were processed

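Per the labels, CUT&RUN was performed in 2 cell lines with 2 Rb libraries per treatment (300 nM INX-315 or DMSO, 2 days) and 1 IgG2a library per line. After trimming, the authors aligned reads to hg38 with Bowtie2 2.3.4.1, removed mitochondrial and blacklisted reads, kept duplicates, and called peaks in each library with MACS2 2.2.7.1 against the IgG2a library of the line at a q-value of 0.05. The deposited peak lists hold, per peak, a fold enrichment (a linear ratio of fragments at the summit to local background), −log10 p-values and −log10 q-values, a display score that the authors' caller derived from the q-value, and the summit offset. The study's own tests were run on reads, which were not used here.

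Fragments at the summit and the local background were recovered together from the deposited fold enrichment and p-value (relative tolerance 3e-05). At least 99.7% of the peaks of each Rb library gave a whole number, and the same recovery with counts offset from whole numbers fitted at most 2.02% of peaks. The lowest, most frequent background was taken as the mean fragments per base. Log2 heights were fitted with limma 3.58.1 (R 4.3.3; trended variance, 4 group means) over the 3762 genes with a promoter peak in all 8 libraries, with Benjamini–Hochberg adjustment over all of them and a threshold of 0.05. In that fit the spread came wholly from the trend over all genes (4 residual and 15048 total degrees of freedom). Its intervals and p-values therefore do not measure the replicate spread of a single gene. Relative to the library median the total was 26.9, so a gene's own spread entered in part. On heights simulated for the comparison over both lines (3762 genes, independent noise, no shift of whole libraries), 100% of the 100 genes changed by a log2 of 1 and 100% of the 100 changed by 2 were recovered, and 5.66% of calls were false. The noise had 1 SD for all genes, taken from the 2 DMSO libraries of OVCAR-3, and most genes were left unchanged, unlike in the data. The recovery holds for that setting only. Shifts of a whole library move all genes together, so p-values over genes understate that source of error. Starts and exons came from GENCODE 44, and sequences from the hg38 FASTA; peaks ended within the sequence on each of 23 main chromosomes. The files were read with Python 3 libraries (pandas, SciPy).

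All 10 members are named; other genes were named if a start lay within 1000 bp of a member's summit or, of the 2 further lists (24 and 14 genes), if among the 3 highest or 3 lowest changes or without a peak in some library. POLH heights and PRIM2BP were added after values were seen. The members and lists were chosen with earlier results of these data known. Alternatives covered the scaling, peak and promoter definitions, filters, the replicate block and leaving out each library; combinations with the library median were added after seeing the data.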

Additional observations from a re-analysis of the deposited data

How the results depend on the processing

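The deposited lists hold peaks without reads, so heights below the caller's threshold are unknown and heights carry the counting error of their fragments, as few as 7 at POLA1. Heights divided by the library median, the alternative that removes the common rise, gave over both lines 211 genes higher and 417 lower, with 0 members higher and 5 lower, and log2 changes of -1.30 at POLA2, -1.01 at PRIM1, -0.30 at POLD1, -0.61 at POLD3, -0.21 at POLE, -0.53 at PCNA and -0.44 at FEN1. It gave 75 genes higher, 227 lower, 0 members higher and 2 lower in OVCAR-3, 80, 127, 0 and 2 in Kuramochi, 1095 genes and 1 member (PRIM1) that differed between the lines under DMSO, and 78 genes with wider peaks. With missing peaks set to the lowest height, 12396 of 13734 genes rose over both lines, 11684 in OVCAR-3 and 9614 in Kuramochi. In that fit 8 members rose in OVCAR-3, and 3 genes differed in effect between the lines. Under DMSO 225 genes were higher and 75 lower in Kuramochi, 1 member (PRIM2) among the latter. The member counts include POLA1, POLE2 and PRIM2, which had substituted heights in at least 1 DMSO library, so they are a description with no test. On the fold enrichment as deposited 2224 genes and 0 members rose in Kuramochi and 5 genes differed under DMSO. Over local background 3 members rose in Kuramochi, and 463 genes and 2 members differed under DMSO. Relative to the library median and over local background 1 member fell and POLE stood at 0.16. At an adjusted p under 0.1, 451 genes differed under DMSO. With peak lists of equal length no member was gained in OVCAR-3. By percentile rank 0 members in OVCAR-3 and 1 in Kuramochi had both treated values above both controls. The cause was not tested.

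Replicates shared only a number (correlation of their deviations -0.04 in OVCAR-3 and -0.008 in Kuramochi). With the replicate block 1 gene differed in effect between the lines, 882 genes differed under DMSO and 1 member (POLD3) passed as wider, and relative to the library median PRIM1 also fell within Kuramochi. No other call of a member changed, on either scale. On leaving out each library in turn, genes higher ranged from 3698 to 4636 over both lines, 3262 to 4643 within OVCAR-3 and 2389 to 3920 within Kuramochi, with 5 to 6, 4 to 6 and 1 to 6 members. Genes that differed under DMSO ranged from 67 (without DMSO replicate 1 of OVCAR-3) to 609 (without DMSO replicate 1 of Kuramochi), with 0 to 1 members. Members lower than the library median ranged from 2 to 5, genes with wider peaks from 391 to 2983, and members with wider peaks from 0 to 4. Members bound under DMSO ranged from 8 to 9 (OVCAR-3) and from 7 to 10 (Kuramochi), and members gained from 1 to 2 and from 0 to 3. The counts over all 19970 genes moved as well. Genes bound under DMSO ranged from 5353 to 7386 (OVCAR-3) and from 4961 to 7781 (Kuramochi) on leaving out a library of that line. Genes gained ranged from 3327 to 5144 and from 3061 to 5399, of 11921 to 13954 and 11895 to 14715 free genes.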
